A study of Mus musculus with 12 samples.

Results

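The genes of the proteasome and of its regulators were described in midbrain microglia of mice with and without the coactivator gene Ppargc1a, after the toxin MPTP or after PBS. The members are all gene symbols that start with Psma, Psmb, Psmc, Psmd, Psme, Psmf or Psmg followed by a digit. There were 49 such genes among 21135 gene symbols, and they comprised 219 of the 67355 deposited rows. The values are FPKM, fragments scaled by transcript length and library size, summed over the rows of a symbol. Of the 49 genes, 48 had at least 1 FPKM in at least 3 separate profiles and were tested. The other was Psmb11, a catalytic subunit of the thymus, listed at between 0 and 0.01 FPKM.

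The proteasome degrades proteins that carry ubiquitin chains. Its barrel, the 20S core, is built from rings of alpha and beta subunits, and 3 of the beta subunits (Psmb5, Psmb6 and Psmb7) cut the peptide chain. Its cap, the 19S regulator, binds ubiquitin, removes it, and unfolds the substrate with a ring of ATPases. Interferon induces 3 alternative catalytic subunits (Psmb8, Psmb9 and Psmb10), and the core that contains them is the immunoproteasome, which shapes the peptides shown on MHC class I and is a feature of many immune cells, microglia among them.

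The 12 samples formed 4 groups of 3. KO animals had the genotype Ppargc1a FF CreER and received MPTP or PBS, and WT animals had the genotype Ppargc1a FF and received MPTP or PBS. All samples were taken 6 weeks after tamoxifen, so WT animals carried the FF alleles and tamoxifen too. The labels name neither the promoter of CreER nor the schedule of MPTP, a toxin of dopaminergic neurons, and give no animal for any sample. Whether the spread behind a p-value is between animals or technical cannot be told from the labels.

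The 12 columns held 6 separate profiles. The third column of each group followed from its first 2 columns, WT MPTP 2 was 1.02 times WT MPTP 1, and KO MPTP 1 was 1.02 times KO PBS 2. All 219 proteasome rows followed these relations within rounding. The separate profiles were KO MPTP 2, KO PBS 1, KO PBS 2, WT MPTP 1, WT PBS 1 and WT PBS 2, and KO PBS 2 stood under both treatment labels. Lists of values below keep this order, with the KO profiles first. Read depth is unknown, and columns summed to between 388861 and 434022 FPKM. Ppargc1a was at 0.42, 0.33 and 0.12 FPKM in KO and at 2.72, 5.70 and 6.21 FPKM in WT (limma log2 difference -2.14, adjusted p = 1.83e-06), lower in KO as labelled. Ppargc1a was itself among 42 genes with rows that departed from the column relations. In every comparison below, the genes called by limma included some of these 42. Microglial markers did not all follow the label: 11 of 12 were in the table and summed to 1406 to 1522 FPKM in KO and 1519 to 1562 FPKM in WT, but Cx3cr1, P2ry12, Siglech and Sall1 were under 1 FPKM in every profile, while Csf1r was at 117 FPKM. Markers of dendritic cells summed to 88.1 to 101 FPKM in KO and 97.7 to 100 FPKM in WT, nearly all of it Itgax, and markers of T, B and NK cells summed to at most 0.09 FPKM. In such bulk samples, fewer cells of a type and less RNA per cell cannot be told apart.

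All proteasome parts were expressed, and the core was expressed above the cap. The 14 standard subunits of the 20S core had a median of 89.5 FPKM and the 17 subunits of the 19S cap a median of 37.2 FPKM, per transcript length. The ratio of these medians was 2.43, 2.42 and 2.24 in KO and 2.40, 2.34 and 2.54 in WT. The core was thus the higher in every profile, by a similar factor.

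Levels within the core were unequal although each subunit has the same copy number in the particle. The 7 alpha ring genes had levels between 48.7 FPKM for Psma2 and 201 FPKM for Psma7, with a median of 95.1. The 4 structural beta genes lay between 60.3 FPKM for Psmb3 and 191 FPKM for Psmb4. The highest member was Psmb6, which carries the caspase-like site, at 363 ± 19.3 FPKM (SD, n = 6). Among the alpha genes, Psma4 was at 63.7, 62.3 and 66.0 FPKM in KO and 67.5, 62.8 and 63.1 FPKM in WT. Psma6 was at 77.2, 75.6 and 81.9 FPKM in KO and 82.2, 75.9 and 79.7 FPKM in WT. These genes had, with Psmd1, the smallest ranges of all tested members, and their KO and WT values overlapped.

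In the cap, the 6 ATPase genes Psmc1 to Psmc6 lay between 26.6 FPKM (Psmc2) and 71.5 FPKM (Psmc1). Psmc5 was at 34.2, 33.5 and 37.3 FPKM in KO and 36.7, 31.6 and 34.7 FPKM in WT. Psmc6 was at 48.3, 46.7 and 49.9 FPKM in KO and 53.2, 49.2 and 49.1 FPKM in WT. Neither ATPase gene separated KO from WT. The scaffold subunit Psmd2 was at 99.5 FPKM, and its partner Psmd1 at 35.5, 33.4 and 36.1 FPKM in KO and 36.0, 34.4 and 33.8 FPKM in WT. Psmd14, the deubiquitinase of the lid, lay with most lid genes, which had a median of 36.7 FPKM.

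The highest of the 8 lid genes among the members was Psmd8, at 207, 195 and 192 FPKM in KO and 216, 203 and 216 FPKM in WT. Psmd11 was at 26.7, 25.1 and 27.0 FPKM in KO and 27.8, 23.9 and 26.0 FPKM in WT. Psmd12 was at 41.6, 40.9 and 45.3 FPKM in KO and 44.3, 41.7 and 43.4 FPKM in WT. Psmd11 and Psmd12 are helical lid subunits, and their groups overlapped, as did those of Psmd8, where KO MPTP 2 lay above WT PBS 1. Psmd7, the partner of the deubiquitinase, was at 39.6, 37.1 and 42.0 FPKM in KO and 40.8, 37.3 and 38.3 FPKM in WT. For Psmd7 the lowest and the highest value both belonged to KO.

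The members that are assembly chaperones help build the rings and do not stay in the finished particle. Those of the 19S base lay between 11.8 FPKM (Psmd9) and 19.3 FPKM (Psmd5), and those of the 20S core, Psmg1 to Psmg4, between 15.5 FPKM (Psmg2) and 22.0 FPKM (Psmg4). Psmd5 was at 18.1, 19.9 and 20.02 FPKM in KO and 20.2, 18.8 and 18.8 FPKM in WT. Psmd9 was at 12.97, 11.2 and 11.96 FPKM in KO and 11.3, 10.9 and 12.2 FPKM in WT. The KO MPTP 2 profile was thus the lowest for Psmd5 and the highest for Psmd9. Psmg3 was at 16.9, 14.5 and 17.3 FPKM in KO and 16.7, 14.6 and 17.1 FPKM in WT, with the first PBS profile of each genotype low. Psmg4 was at 21.1, 22.3 and 22.5 FPKM in KO and 23.8, 19.8 and 22.5 FPKM in WT, and the widest pair of values lay within WT.

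The activators open the gate of the core in place of the cap. Psme1 and Psme2 form the interferon-inducible activator. Psme1 was at 92.6, 84.3 and 85.9 FPKM in KO and 94.9, 89.8 and 92.7 FPKM in WT. Psme2 was at 80.3, 77.1 and 78.0 FPKM in KO and 85.1, 76.4 and 80.8 FPKM in WT. WT MPTP 1 was the highest for both genes. The nuclear activator Psme3 was at 36.7, 33.9 and 37.8 FPKM in KO and 36.5, 36.0 and 36.0 FPKM in WT. Psme4, a large activator of the nucleus, was at 14.9, 14.1 and 14.6 FPKM in KO and 15.2, 15.2 and 13.8 FPKM in WT. Both overlapped between genotypes. Psmf1, described in vitro as an inhibitor of the core, was at 18.4, 16.2 and 17.4 FPKM in KO and 18.5, 16.8 and 18.2 FPKM in WT, also overlapping.

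A pair of members fell outside these roles. Psme2b, a copy closely related to Psme2, was at 12.6, 11.4 and 9.24 FPKM in KO and 10.5, 12.8 and 12.5 FPKM in WT. It varied the most of all tested members, with a coefficient of variation of 12.3% against 4.04% for Psme2, and how fragments were split between the 2 copies is not given in the sources used here. Psmc3ip meets the rule by its name but encodes a cofactor of meiotic recombination, and was the lowest tested member at 1.91, 1.59 and 1.98 FPKM in KO and 2.12, 1.66 and 1.77 FPKM in WT.

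**Figure D1:**
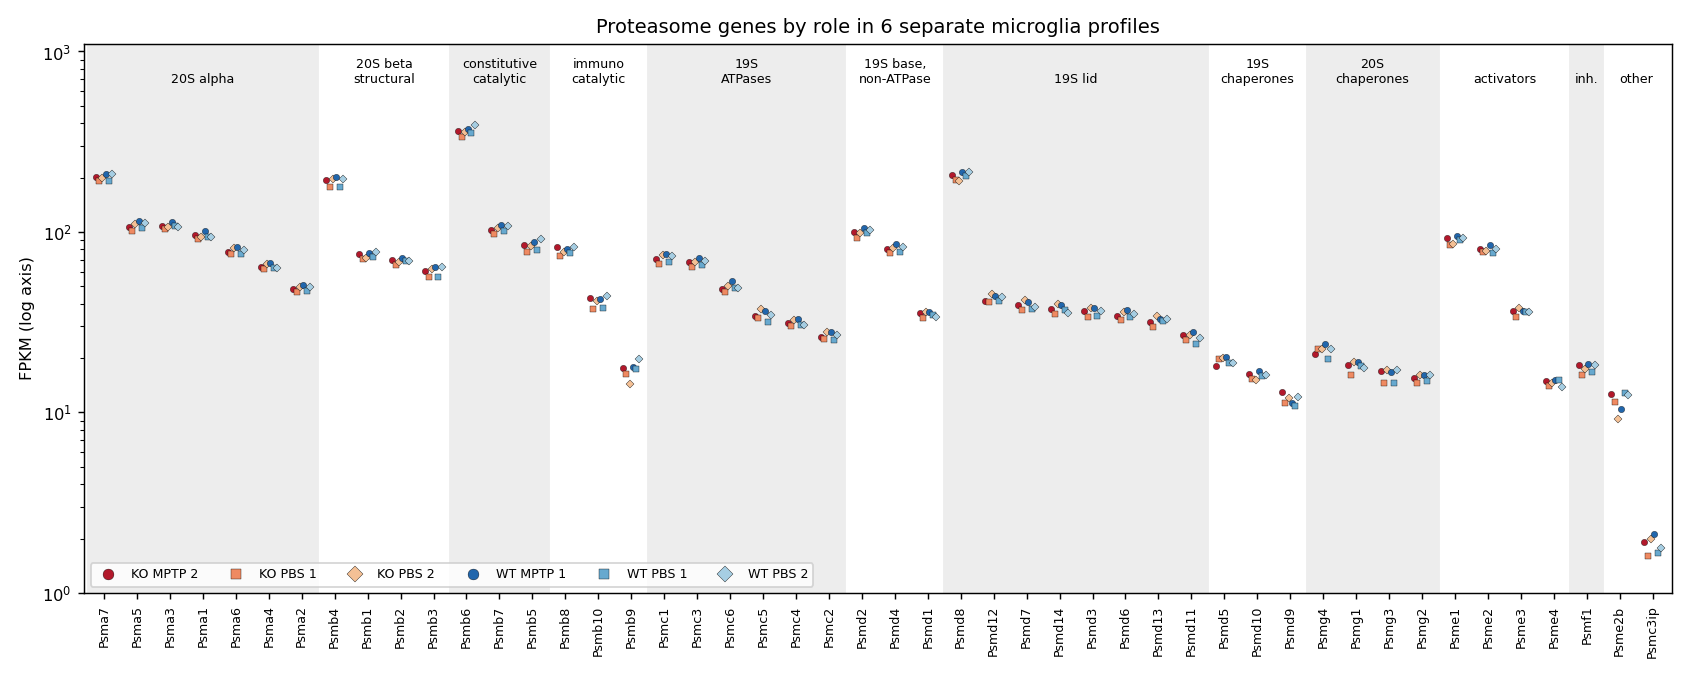
FPKM of the 48 tested proteasome genes on a log axis, grouped by role, with 1 point per separate profile (KO in red and orange, WT in blue; KO PBS 2 also stands under KO MPTP 1). The 6 profiles of a gene lie close together, and levels range from 1.84 FPKM for Psmc3ip to 363 FPKM for Psmb6.

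The spread between profiles was close to that of other genes of similar level. The coefficient of variation over the 6 profiles had a median of 4.62% over tested members, against 4.80% over the 4693 genes in the range of levels of the members other than Psmc3ip. It was under 10% for 45 of the 48 members (93.8%), the others being Psme2b, Psmb9 and Psmc3ip. It was also under 10% for 96.3% of those genes, whose range leaves out Psmc3ip, and for 87.6% of all tested genes. The lowest rank correlation of member levels between any 2 profiles was 0.994, which is across genes of the same table and is a description only.

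The immunoproteasome genes were expressed in all 6 profiles, and their level relative to the constitutive partner differed by pair. Psmb8 replaces Psmb5 at the chymotrypsin-like site, Psmb9 replaces Psmb6 at the caspase-like site and Psmb10 replaces Psmb7 at the trypsin-like site. Psmb8 was nearly as high as Psmb5, at 93.7% ± 2.82 of its level (SD, n = 6). Psmb10 was at 39.6% ± 1.65 of Psmb7, and Psmb9 at 4.74% ± 0.354 of Psmb6. Together the 3 immunoproteasome genes made up 19.9% ± 0.361 of the summed FPKM of the 6 catalytic genes.

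Psmb8 was at 82.3, 73.2 and 77.1 FPKM in KO and 80.0, 76.6 and 82.3 FPKM in WT, and Psmb5 at 85.0, 77.4 and 83.6 FPKM in KO and 87.4, 79.1 and 91.2 FPKM in WT. The ratio of Psmb8 to Psmb5 was 96.9%, 94.6% and 92.2% in KO and 91.5%, 96.9% and 90.2% in WT. The highest ratios of the groups were alike, and no shift by genotype was seen beyond the spread. Psmb10 was at 42.9, 37.2 and 41.3 FPKM in KO and 42.6, 38.1 and 44.4 FPKM in WT, and Psmb7 at 102, 97.6 and 105 FPKM in KO and 109, 101 and 108 FPKM in WT. Their ratio averaged 39.8% ± 1.93 in KO and 39.3% ± 1.70 in WT (SD, n = 3 each).

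Psmb6 was at 362, 336 and 358 FPKM in KO and 372, 353 and 394 FPKM in WT. Psmb9 was at 17.6, 16.3 and 14.4 FPKM in KO and 17.9, 17.3 and 19.7 FPKM in WT. Only KO MPTP 2 reached into the WT values of Psmb9, exceeding WT PBS 1. Its ratio to Psmb6 was 4.85%, 4.86% and 4.03% in KO and 4.82%, 4.90% and 5.01% in WT, so that KO PBS 2 was the single low profile. The summed immunoproteasome share was 20.6%, 19.9% and 19.6% in KO and 19.8%, 19.8% and 19.8% in WT, with the WT values closer to each other than the KO values. On the log2(FPKM + 1) scale, the mean of the immunoproteasome genes minus that of their partners was -1.92 ± 0.07 in KO and -1.90 ± 0.02 in WT (SD, n = 3 each), a difference of -0.02. No p is given for this mean over members.

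**Figure D2:**
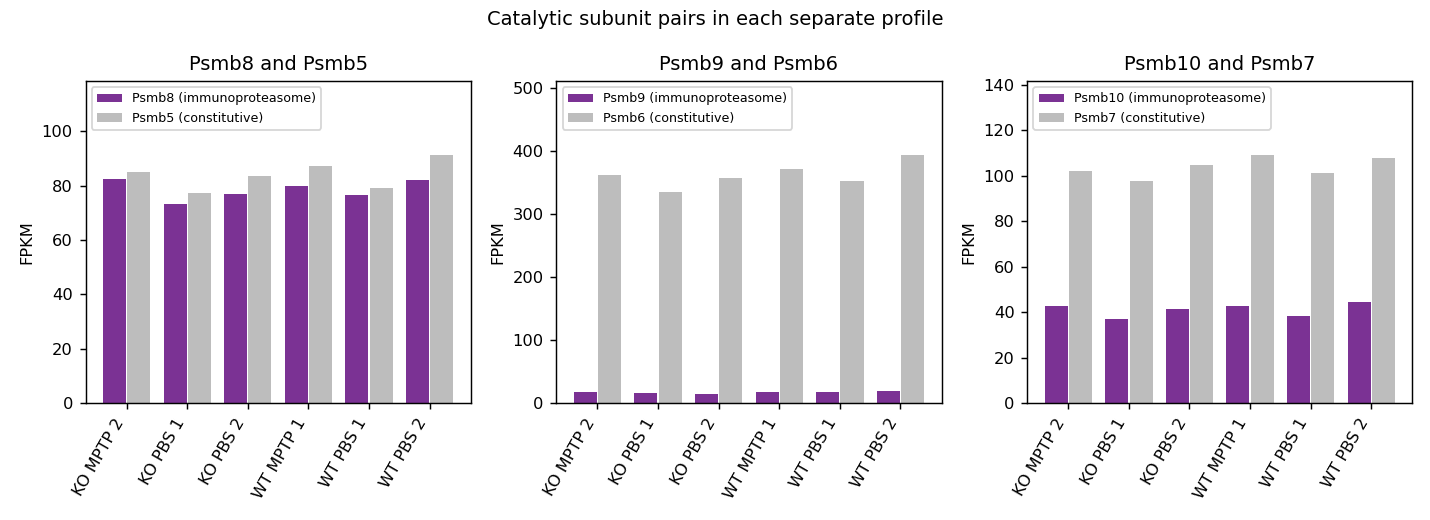
FPKM of each immunoproteasome gene beside its constitutive partner in the 6 separate profiles, with axes starting at 0 and 1 bar per profile. Psmb8 nearly equals Psmb5, Psmb10 is at 39.6% of Psmb7, and Psmb9 is at 4.74% of Psmb6.

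KO against WT over the 6 separate profiles asked whether the loss of Ppargc1a went with another level of proteasome genes. By limma with Benjamini-Hochberg adjustment over 10636 genes, 0 of 48 members rose or fell, where 0.0752% of all tested genes were called. The genes called were 8, all lower in KO, and 7 of them belonged to the 42 genes off the column relations. At an unadjusted p under 0.05 there was 1 member, Psmb9, where 3.5% of all tested genes passed. Every member's 95% interval lay within 0.5 of 0 on the log2 scale, with bounds between -0.33 and 0.20. The median difference of the members was -0.03, and that of all tested genes was also -0.03; after quantile normalization the members' median was 0.0164, above 0.

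Psmb9, the lowest of the 3 immunoproteasome genes, averaged 16.1 ± 1.58 FPKM in KO and 18.3 ± 1.24 FPKM in WT (SD, n = 3 each). Its log2 difference was -0.18 ± 0.07 (SE; 95% interval -0.33 to -0.03; limma adjusted p = 0.997). Without KO PBS 2 the difference was -0.11 and without WT PBS 2 it was -0.13, and in both cases the unadjusted p no longer passed 0.05. It also did not pass after median rescaling (-0.14), after quantile normalization (-0.15) or without the filter on low values. Nor did it pass with treatment as a covariate and KO PBS 2 counted as KO MPTP (-0.17). It did pass with the other pseudocounts, at least 5 FPKM, the row of highest mean, or no mean-variance trend. It also passed with the replicate block (-0.20), and with treatment as a covariate and KO PBS 2 counted as KO PBS (-0.18). Leaving out WT PBS 1 (-0.22), WT MPTP 1 (-0.19), KO PBS 1 (-0.19) or KO MPTP 2 (-0.24) kept the pass. In none of these did the adjusted p pass 0.05. Of the other members, the largest negative differences were -0.10 for Psme2b and -0.10 for Psmd8, and the largest positive ones were 0.07 for Psmd9, 0.03 for Psmc5 and 0.03 for Psmd7. Psmb8 and Psmb10, the other immunoproteasome genes, differed by -0.04 each. For 0 of 48 members did every KO profile lie below every WT profile, where 7.19% of all tested genes had that order, and for 0 did every KO profile lie above, where 0.818% did.

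The low value of Psmb9 in KO PBS 2 lay mainly in 1 of its 6 deposited rows. Row 4 was at 5.41, 5.55 and 2.67 FPKM in KO and 5.81, 5.23 and 6.33 FPKM in WT. The largest row, row 1, was at 10.2, 9.48 and 10.3 FPKM in KO and 10.8, 10.8 and 11.6 FPKM in WT. In row 4 KO PBS 2 alone was far from the rest. In row 1 all 3 KO values were below the WT values, but the summed rows of Psmb9 did not have this order. Over summed rows 7.19% of all tested genes had it, and its share over single rows was not counted. What a row stands for is not given in the sources used here.

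Psmb9 lies head to head with Tap1, a subunit of the transporter that carries peptides into the endoplasmic reticulum for MHC class I. Tap1 was at 16.6, 13.8 and 13.1 FPKM in KO and 15.3, 16.2 and 16.6 FPKM in WT. KO PBS 1 and KO PBS 2 were thus below all WT values for both neighbours, and KO MPTP 2 was not. The share of all tested genes with this order is not given here. KO PBS 1 was the lowest of the 6 profiles for 42.0% of all tested genes, and KO PBS 2 for 22.3%. Whether the 2 neighbours vary together was not tested. The difference of Tap1 over 6 profiles was -0.14 ± 0.07 on the log2 scale (SE; limma adjusted p = 0.997). In the RefSeq promoter windows (GRCm38.p6, from 250 bases before to 50 bases after the annotated start), 275 bases of the Psmb9 window, chr17:34187306-34187580, also belonged to the window of Tap1 on the other strand. This stretch is shown because both genes start in it. It is printed up to 30 bases after the start, chr17:34187301-34187580, minus strand, with the match to CCAAT on the other strand, read as ATTGG, in capitals.
Psmb9: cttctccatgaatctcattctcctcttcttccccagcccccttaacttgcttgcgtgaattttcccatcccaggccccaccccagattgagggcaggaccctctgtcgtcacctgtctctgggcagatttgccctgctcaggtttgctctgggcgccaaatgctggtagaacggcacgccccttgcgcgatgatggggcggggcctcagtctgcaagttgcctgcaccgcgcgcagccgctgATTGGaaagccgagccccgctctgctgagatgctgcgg

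**Figure D3:**
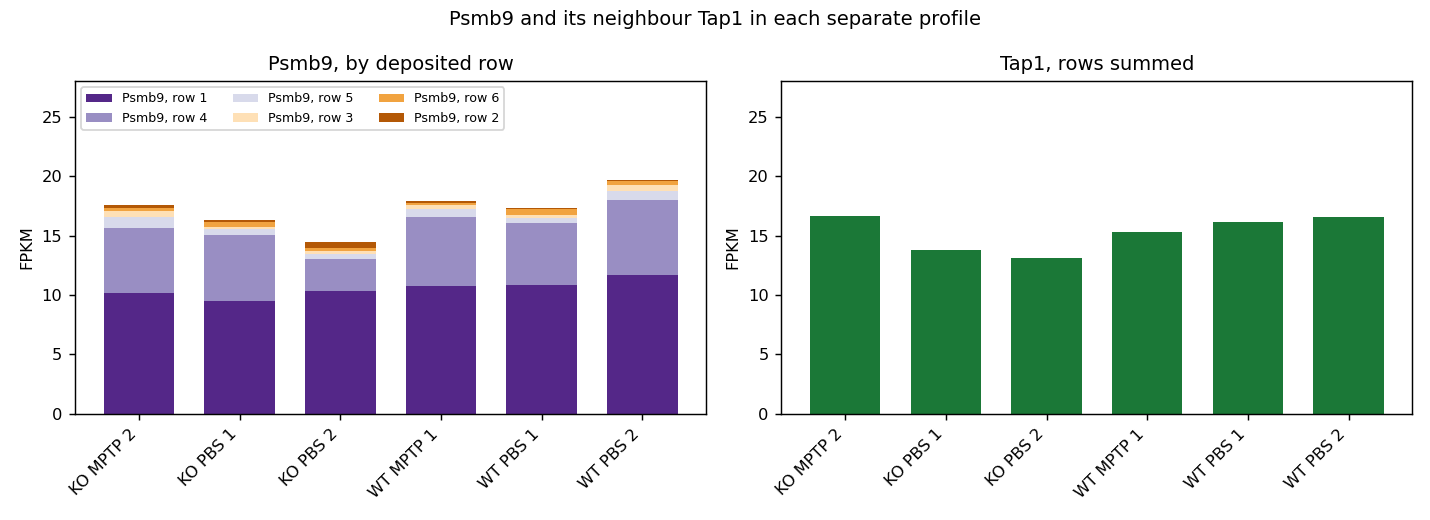
FPKM of Psmb9, stacked by deposited row (left), and of its neighbour Tap1 (right) in the 6 separate profiles, with axes starting at 0. KO PBS 2 is the lowest profile for both genes, at 14.4 FPKM for Psmb9 and 13.1 FPKM for Tap1, and for Psmb9 the gap lies in row 4.

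Promoter windows of 42 members were searched on both strands for 4 short motifs. The core of the antioxidant response element, TGACNNNGC, which the proteasome regulator NFE2L1 binds with small Maf proteins, matched in 6 members (14.3%) and in 13.99% of the 27025 genes with a window. These members were Psmb5, Psmb6, Psmc6, Psmd9, Psmd12 and Psme4. The core of the interferon-stimulated element, GAAA, any 2 bases and GAAA again, matched in 5 members (11.9%) and in 3.99% of all genes, and its members were Psmb3, Psmd4, Psmd9, Psme1 and Psmg4. The core of the gamma-activated element, TTCNNNGAA, matched in 3 members (7.14%, Psmb8, Psmd2 and Psmg1) and in 9.55% of all genes, and CCAAT in 15 members (35.7%) and in 41.1% of all genes. A match describes the letters of a window only. The windows below are those of the 3 catalytic genes with a match to one of the first 3 motifs, Psmb5, Psmb6 and Psmb8, and that of Psme1 as an example of the interferon-stimulated core. Each is printed 5′ to 3′ on the gene's strand, at most 30 bases past the start, with the match in capitals. They lie at chr14:54617989-54618088 (Psmb5, minus strand), chr11:70525302-70525386 (Psmb6, plus strand), chr17:34198052-34198151 (Psmb8, plus strand) and chr14:55578458-55578523 (Psme1, plus strand, where the match is on the other strand) of GRCm38.p6.
Psmb5: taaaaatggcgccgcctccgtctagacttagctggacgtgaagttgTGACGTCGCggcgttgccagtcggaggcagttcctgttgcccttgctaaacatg
Psmb6: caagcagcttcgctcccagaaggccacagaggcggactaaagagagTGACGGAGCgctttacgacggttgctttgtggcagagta
Psmb8: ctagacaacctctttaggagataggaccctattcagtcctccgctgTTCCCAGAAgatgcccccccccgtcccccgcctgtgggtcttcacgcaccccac
Psme1: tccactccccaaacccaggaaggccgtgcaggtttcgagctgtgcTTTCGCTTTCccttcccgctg

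In KO PBS 1 and WT MPTP 1 the members moved in the direction of all tested genes, and in KO PBS 2 in the other direction. KO PBS 1 had the lowest value of the 6 profiles for 35 members (72.9%), and for 42.0% of all tested genes. WT MPTP 1 had the highest value for 28 members (58.3%), and for 31.6% of all tested genes. Relative to the mean of the 6 profiles, the members had a median of -0.07 in KO PBS 1 and 0.07 in WT MPTP 1 on the log2 scale, against -0.06 and 0.04 over all tested genes. In KO PBS 2 the members were at 0.03 while all tested genes were at -0.03, the widest gap of the 6 profiles. In WT PBS 1 the members were at -0.04 and all tested genes at -0.0017. The values were 0.01 and 0.03 in KO MPTP 2, and 0.03 and 0.003 in WT PBS 2. The share of the proteasome genes in the total FPKM was 0.761%, 0.753% and 0.799% in KO and 0.763%, 0.749% and 0.778% in WT, and did not separate the genotypes.

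**Figure D4:**
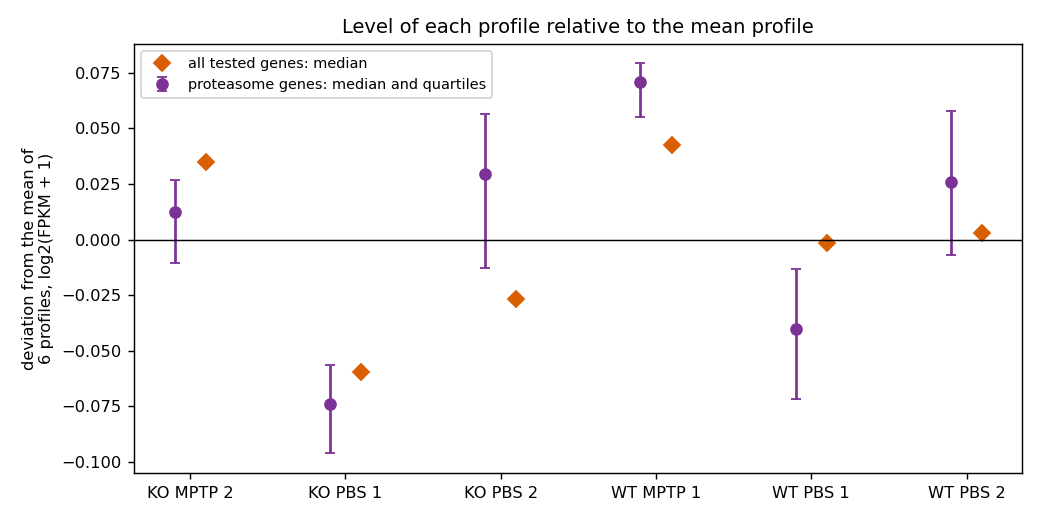
Deviation of each separate profile from the mean of the 6 profiles on the log2(FPKM + 1) scale, as the median and quartiles of the 48 tested proteasome genes and as the median of all tested genes. KO PBS 1 lies lowest, at -0.07, and WT MPTP 1 highest, at 0.07, for the proteasome genes.

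MPTP against PBS was compared within each genotype in a fit of 5 profiles, without KO PBS 2. Only WT PBS had 2 profiles there, and the test takes each single profile to be as variable as that pair. In KO the MPTP and PBS profiles also differ in replicate number, so treatment and replicate number cannot be told apart. In KO, 0 of 48 members were called by limma, where 0.291% of all tested genes were, and 0 members passed an unadjusted p under 0.05, where 9.24% of all tested genes did. The fold changes had a median of 0.09, as did all tested genes, and 46 of 48 (95.8%) were above 0, as were 86.5% of all tested genes; with each profile rescaled to the same median, the members' median was below 0, at -0.0156, and 15 of 48 were above 0. The most positive were Psmg3 (0.20), Psmb10 (0.20) and Psmd9 (0.19), and the least were Psmd5 (-0.13), Psmg4 (-0.08) and Psmd12 (0.02). All 48 intervals lay within 0.5 of 0, between -0.34 and 0.46. The lowest adjusted p of any member in any comparison, 0.600 by limma, belonged to this comparison.

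In WT, MPTP against PBS also gave 0 called members, where limma called 0.254% of all tested genes. The background was 5 genes higher and 22 lower, 18 of them among the genes whose rows departed from the column relations. An unadjusted p under 0.05 was met by 1 member, Psme2b, and by 2.69% of all tested genes. Fold changes had a median of 0.08 over the members and 0.04 over all tested genes. They were above 0 for 44 of 48 members (91.7%) and for 73.0% of all tested genes. After median rescaling, and likewise after quantile normalization, 38 of 48 members were above 0, with no such share given for all tested genes. All these values rest on the single WT MPTP profile. The most positive were Psmc3ip (0.20), Psmg4 (0.17) and Psmd11 (0.15). Psme2b, at 10.5 FPKM after MPTP and 12.8 and 12.5 FPKM after PBS, had a log2 difference of -0.25 ± 0.09 (SE; limma adjusted p = 1), followed by Psmb9 (-0.04) and Psmd9 (-0.02). Intervals lay between -0.44 and 0.42.

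By role, over groups of at least 3 genes, MPTP in WT gave medians between 0.01 for the immunoproteasome genes and 0.11 for the 19S ATPases, and in KO between 0.05 for the 19S ATPases and 0.17 for the immunoproteasome genes. With median rescaling the WT medians were -0.04 for the immunoproteasome genes and 0.06 for the ATPases, and the KO medians -0.05 for the ATPases and 0.06 for the immunoproteasome genes, so that a pair of these signs turned. In KO, Psmb8 had 0.17 (adjusted p = 0.600, limma), Psmb9 0.10 (adjusted p = 0.725, limma) and Psmb10 0.20 (adjusted p = 0.600, limma), and in WT they had 0.01, -0.04 and 0.05, each with adjusted p = 1. Neither set of values passed the test. The difference between these responses is the interaction, which is positive where the change after MPTP was greater in KO. Here 0 of 48 members were called by limma, where 0.0752% of all tested genes were, and 1 member, Psme2b, passed an unadjusted p under 0.05, as did 5.18% of all tested genes. Psme2b had 0.39 ± 0.13 (SE; limma adjusted p = 0.681), Psmd9 0.21 and Psmb8 0.16. At the other end were Psmg4 (-0.25), Psmd5 (-0.23) and Psmc5 (-0.12).

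The interaction values are given by role without a call for any gene. They were above 0 for 3 of 3 immunoproteasome genes, also after median rescaling and after quantile normalization and with KO PBS 2 counted under either label. They were above 0 for 3 of 3 constitutive catalytic genes (2 of 3 after either rescaling or with KO PBS 2 counted as KO PBS), 4 of 4 structural beta genes (1 of 4 after median rescaling or with KO PBS 2 counted as KO PBS, 2 of 4 after quantile normalization) and 1 of 7 alpha ring genes (0 after either rescaling or with KO PBS 2 counted as KO PBS, 4 with KO PBS 2 counted as KO MPTP). For the ATPase genes the count was 0 of 6, also after either rescaling, and 2 of 6 with KO PBS 2 counted as KO MPTP. For the lid genes it was 3 of 8 (1 after either rescaling or with KO PBS 2 counted as KO PBS, 6 with KO PBS 2 counted as KO MPTP). It was 2 of 3 for the other base genes (0 after either rescaling), 3 of 4 for the activators and 3 of 4 for the 20S chaperones (2 of 4 after either rescaling), and 2 of 3 for the 19S chaperones (1 of 3 after either rescaling). Counts with KO PBS 2 under either label are not given for these last roles, and that of the other base genes changed with the label. Over all members 26 of 48 (54.2%) were above 0, against 67.1% of all tested genes, and the median was 0.01 against 0.05, or -0.0496 over members after median rescaling. The member count was 14 after median rescaling and 15 after quantile normalization. It was 15 with KO PBS 2 counted as KO PBS and 34 with it counted as KO MPTP. The shares of all tested genes under these alternatives are not given here. Each value rests on the same 5 profiles, of which 3 are the only profile of their group, and 44 of 48 intervals lay within 0.5 of 0, with bounds between -0.57 and 0.68. These counts were made after the values were seen.

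KO against WT was also compared within each treatment, in the same fit. These comparisons share profiles with those of MPTP, so their values are not independent. Under MPTP the KO and WT profiles also differ in replicate number, so genotype and replicate number cannot be told apart there. Under MPTP, with 1 profile each, limma called 0 of 48 members, where 0.132% of all tested genes were called. Psme2b was the member that passed an unadjusted p under 0.05, as 3.62% of all tested genes did, at 12.6 FPKM in KO and 10.5 FPKM in WT (log2 difference 0.24). It was followed by Psmd9 (0.18) and Psmb8 (0.04). The most negative were Psmg4 (-0.17), Psmd5 (-0.15) and Psmc6 (-0.14). The median was -0.06 over members and -0.01 over all tested genes, and bounds lay between -0.41 and 0.47. Differences were below 0 for 42 of 48 members and for 53.6% of all tested genes. For members the count was 41 after median rescaling, 36 after quantile normalization and 40 with KO PBS 2 counted as KO MPTP. The shares of all tested genes under these alternatives are not given here.

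Under PBS, limma called 0 of 48 members, where 0.226% of all tested genes were called, and 0 members passed an unadjusted p under 0.05, where 4.45% did. Differences were below 0 for 44 of 48 members and for 77.9% of all tested genes, but for 27 of 48 members after median rescaling and 22 of 48 after quantile normalization, with a median of -0.07 against -0.06 over all tested genes, and 0.00888 over members after quantile normalization. The most negative were Psmb9 (-0.17), Psmb6 (-0.15) and Psme2b (-0.14), and the most positive Psmg4 (0.08), Psmd5 (0.08) and Psmc5 (0.02). Intervals lay between -0.38 and 0.29. The KO value here is that of KO PBS 1, the profile that was lowest for most members.

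**Figure D5:**
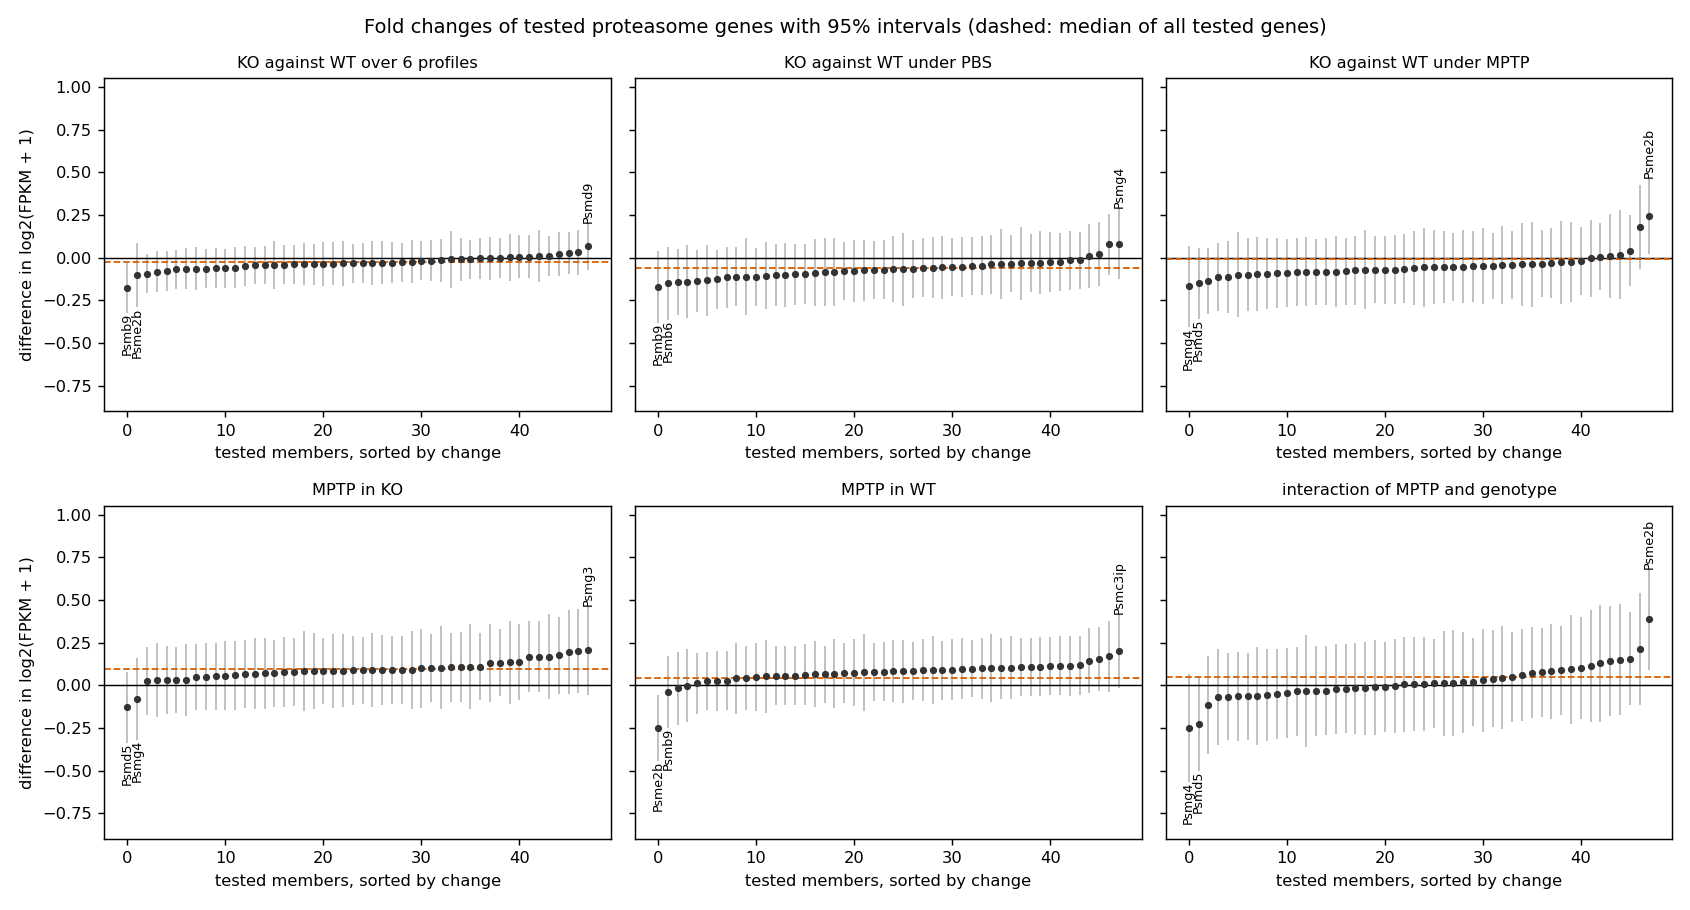
Differences in log2(FPKM + 1) of the 48 tested proteasome genes in each comparison, sorted, with 95% intervals from limma and the median of all tested genes dashed. Points stay between -0.25 and 0.39, medians of the members run from -0.07 to 0.09, and 0 members were called in any panel.

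Genes that work with the proteasome under other names were measured from 4 lists. Of 51 genes, 50 were in the table and all 50 were tested, and limma called 0 in each of the 6 comparisons. At an unadjusted p under 0.05 there were 0 in KO against WT over 6 profiles, where 3.5% of all tested genes passed. There were 4 in MPTP in KO (9.24% of all tested genes), 0 in MPTP in WT (2.69%), 3 for the interaction (5.18%), 1 in KO against WT under MPTP (3.62%) and 3 under PBS (4.45%), which is near these shares. Among partners and assembly factors, Pomp, the maturation factor of the core, was at 83.9 FPKM and Shfm1, a small lid subunit, at 81.8 FPKM. Within the list of NFE2L1, the regulator that restores proteasome genes when proteasome activity is blocked, Nfe2l2 was at 63.2 and Mafg at 28.1 FPKM, while Nfe2l1 itself was at 17.9 FPKM. The list of interferon control and class I loading was led by B2m at 1059 and Calr at 436 FPKM.

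In that interferon and class I list, Nlrc5, an activator of MHC class I genes and of Psmb9, was at 9.24, 6.19 and 6.83 FPKM in KO and 7.34, 7.35 and 7.43 FPKM in WT. The single KO MPTP profile was the highest and KO PBS 1 the lowest. MPTP in KO gave 0.51 ± 0.11 for Nlrc5 (SE; limma adjusted p = 0.115) and 0.25 ± 0.10 for Tap1 (SE; limma adjusted p = 0.469), and the interaction 0.52 ± 0.14 for Nlrc5 (SE; limma adjusted p = 0.403). Psmb9 had 0.10 ± 0.11 in MPTP in KO (SE; limma adjusted p = 0.725). None of the 3 genes was called. Irf1, an interferon regulator of the same list, was at 5.21 FPKM on average.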

How the data were processed

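Microglia RNA-seq libraries of 4 groups were used. The authors deposited 1 table of 12 columns; its header names no unit, and the deposited values were taken as FPKM because Cufflinks is named. Per the submitters' processing notes, Cufflinks and TopHat were used with Bowtie 0.12.7 and CASAVA 1.5 on mm9; their roles are not given. The annotation is not given in the sources used here. Values carry no counts, so no counting interval is given. Rows were summed per symbol, and 1 row with text in a cell was left out. Columns were compared with tolerances of 0.00995 FPKM (relations with a mean) and 0.0101 FPKM (multiples), and only the 6 separate profiles were used.

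limma 3.58.1 in R 4.3.3, with a mean-variance trend, was run on log2(FPKM + 1) for 10636 genes with at least 1 FPKM in at least 3 of 6 profiles, with Benjamini-Hochberg adjustment over all of them and a threshold of 0.05. This scale understates changes of low genes. The fit of 4 groups used 5 profiles (1 residual and 9.09 prior degrees of freedom) and left out KO PBS 2, which stands under 2 labels; the genotype fit used 6 profiles, 3 per genotype and without a treatment term (4 residual and 13.7 prior degrees of freedom). The procedure was tested on simulated data. Members and lists were chosen with earlier results of these data known. Values per profile are given for the catalytic genes, activators, Psmf1, the 3 widest and 3 narrowest members and the 3 extreme fold changes at each end of a comparison; of the other lists, the 2 highest genes, except where not reported here; Nlrc5, Tap1, Nfe2l1 and Irf1 were named after their values were seen. All 49 symbols matched a RefSeq symbol, and promoter windows are RefSeq's (GRCm38.p6). A comparison of protein sequences was planned and not made here. Alternatives were other pseudocounts, filters, scalings, row choices and label assignments, leaving out profiles, and a replicate block.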

Additional observations from a re-analysis of the deposited data

How the results depend on the processing

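The count of called members stayed at 0 under every alternative but the use of all 12 columns as libraries, which counts computed columns as replicates: it called 3 members lower in KO over 6 profiles (Psmb9, Psmd8 and Psme1; Psmb9 at -0.20, limma adjusted p = 0.0137), 20 higher in MPTP in WT, 9 lower in KO under MPTP and 4 lower in KO under PBS. Leaving out single profiles gave differences for Psmb9 between -0.24 and -0.11. Of the member medians, 22 of 93 alternatives moved by more than 0.0470 (the SD of the WT PBS pair), and of the immunoproteasome minus constitutive values 9 of 93 moved by more than 0.0495; the cause was not tested. Median rescaling gave member medians of -0.0156 for MPTP in KO, -0.00620 for KO under PBS and -0.0496 for the interaction. Quantile normalization gave 0.0164 for KO over 6 profiles, -0.00903 for MPTP in KO, 0.0312 for MPTP in WT and 0.00888 for KO under PBS, so that 5 of these 7 medians changed sign with the scaling. With KO PBS 2 counted as KO PBS, medians were 0.0334 for MPTP in KO, -0.0520 for the interaction and -0.0146 for KO under PBS, which was -0.0145 with 12 columns. By profile, the immunoproteasome minus constitutive value was -1.86, -1.91 and -1.99 in KO and -1.92, -1.90 and -1.89 in WT. Without KO PBS 2, its differences for MPTP in KO, the interaction and KO under MPTP were all positive. With KO PBS 2 counted as KO MPTP, they were -0.0147 for MPTP in KO, 0.0112 for the interaction and -0.0045 for KO under MPTP (-0.0030 with 12 columns). The signs for MPTP in KO and KO under MPTP thus turned with the label of this profile. Leaving out 1 PBS profile at a time, with KO PBS 2 as KO PBS, gave medians of -0.0300 to 0.0334 for MPTP in KO, -0.103 to -0.0210 for the interaction (-0.0878 without WT PBS replicate 2) and -0.0489 to 0.0431 for KO under PBS (0.0207 without WT PBS replicate 2), and immunoproteasome minus constitutive values of 0.0942 to 0.135 for MPTP in KO, 0.113 to 0.161 for the interaction and -0.0973 to -0.0495 for KO under PBS.

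Whether replicate numbers pair the profiles is undecided: there were 2 PBS pairs, the labels name no shared batch, and deviations of same-numbered profiles correlated at 0.227, so the numbers were not used as a block in the results above. With the replicate block, 0 members were called; medians were -0.0101 for MPTP in KO, -0.143 for the interaction, -0.154 for KO under MPTP and -0.0146 for KO under PBS, and immunoproteasome minus constitutive values were 0.111 for MPTP in KO and 0.154 for the interaction. Depth is unknown, 3 of 4 groups had 1 usable profile, and intervals there rest on the WT PBS pair.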
